A study of Macaca mulatta with 24 samples.

Results

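The genes described here encode 5 isoforms of protein kinase C (PRKCA, PRKCB, PRKCD, PRKCE and PRKCZ) and 3 isoforms of phospholipase C beta (PLCB1, PLCB3 and PLCB4). They were taken by exact gene symbol from the 17208 gene rows of the deposited expression table. The list itself was drawn up with earlier results of these data known. Averaged over the 24 animals, all 8 reached 1 TPM and were tested among the 13637 genes that did, and 7 reached 10 TPM. TPM is a gene's share of an animal's transcripts, per length of the gene and scaled to a fixed total. Levels of different genes can thus be set side by side, provided that gene lengths entered the values, which the sources do not state.

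Phospholipase C beta is the enzyme through which Gq-coupled receptors, such as the group I metabotropic glutamate receptors and the M1-type muscarinic receptors, act inside a neuron. It cleaves the membrane lipid PIP2 into IP3, which releases calcium from internal stores, and diacylglycerol, which stays in the membrane and recruits protein kinase C. Conventional isoforms (PRKCA, PRKCB) need both calcium and diacylglycerol, PRKCD and PRKCE need diacylglycerol alone, and the atypical PRKCZ needs neither. The nucleus accumbens core (NAcc core) is a ventral striatal region built mostly of GABAergic projection neurons, in which this cascade is known for its part in synaptic plasticity and in behavioral responses to ethanol.

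RNA-Seq had been carried out on the NAcc core of 24 unrelated adult male rhesus macaques, 1 library per animal. The 16 drinkers were first induced to drink ethanol by schedule-induced polydipsia and then had long daily open access to ethanol beside water, and the 8 controls were housed and handled alike with water on both spouts plus a maltose dextrin solution. The drinkers were classed by voluntary intake as 8 LD* animals (light and binge drinkers, 0.47 to 2.07 g/kg of ethanol a day) and 8 HD* animals, of which 4 were heavy drinkers (HD, 2.74 to 3.09 g/kg) and 4 very heavy drinkers (VHD, 3.09 to 3.78 g/kg). Tissue was a small punch of whole tissue taken without imposed abstinence, and the animals chose their own intake, so drinking class was not assigned. By cohort, controls numbered 3 in cohort 5, 2 in 7a and 3 in 7b, LD* animals 2 in cohort 4, 3 in 7a and 3 in 7b, and HD* animals 4 in cohort 5 and 4 in 7a, each time 2 HD and 2 VHD. The numbers given to animals below are names only.

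The values of each animal add up to between 999998 and 1000000 TPM, so sequencing depth cannot be read from them and counting error is not given. The 10 listed markers of striatal projection neurons (among them PPP1R1B, DRD1 and DRD2) were above 0 in every animal, as the tissue label asks. Control 6 stood apart. Its striatal markers summed to 739 TPM against 2565 to 11202 TPM in the other 23 animals, and its oligodendrocyte markers summed to 9365 TPM, the highest of all. Markers of cortical excitatory neurons summed to between 1.42 and 872 TPM, the highest in LD 4. Summed striatal markers split the animals into 12 between 8040 and 11202 TPM and 12 between 739 and 5944 TPM, with 4 controls and 4 LD* animals in each set, all 4 HD animals in the higher and all 4 VHD animals in the lower set. In whole tissue, fewer cells of a type and less RNA per cell cannot be told apart.

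The most abundant of the 8 genes were PRKCZ, with a mean of 244 ± 34.1 TPM, and PRKCB, with 239 ± 89.5 TPM (SD, n = 24). PRKCZ was the higher of this pair in 15 of 24 animals, so their order did not hold in each animal. PRKCD (55.9 ± 24.02 TPM) and PLCB1 (54.3 ± 21.6 TPM) came next and lay below PRKCB in every animal, with PRKCD above PLCB1 in 14 of 24. PRKCE averaged 38.7 ± 13.97 TPM, below PLCB1 in 20 of 24 animals, and PRKCA 20.7 ± 5.34 TPM, below PRKCE in 21 of 24. The remaining phospholipases were the least abundant, PLCB4 at 10.9 ± 4.10 TPM and PLCB3 at 8.09 ± 1.80 TPM, with PLCB4 the higher in 20 of 24 animals. PLCB2, the remaining gene of the beta family, averaged 13.6 ± 3.86 TPM, so that PLCB1 had the highest mean of the beta family.

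Genes of like level differed widely in how much they varied between animals. The standard deviation of log2(TPM + 1) over the 24 animals was 0.76 for PRKCB, 0.70 for PRKCD, 0.65 for PLCB1 and 0.59 for PRKCE, and 96.4%, 95.1%, 93.7% and 90.9% of the tested genes varied less than these. PRKCZ lay at the other end, with a standard deviation of 0.21 that only 15.6% of the genes undercut. PLCB4 (0.44), PRKCA (0.35) and PLCB3 (0.26) fell between them, beside a median of 0.32 over all tested genes. From the lowest to the highest animal, PRKCB spanned 14.3-fold and PRKCZ 1.80-fold. The low end of PRKCB was control 6 with 29.8 TPM, and the next lowest animal had 108 TPM.

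**Figure D1:**
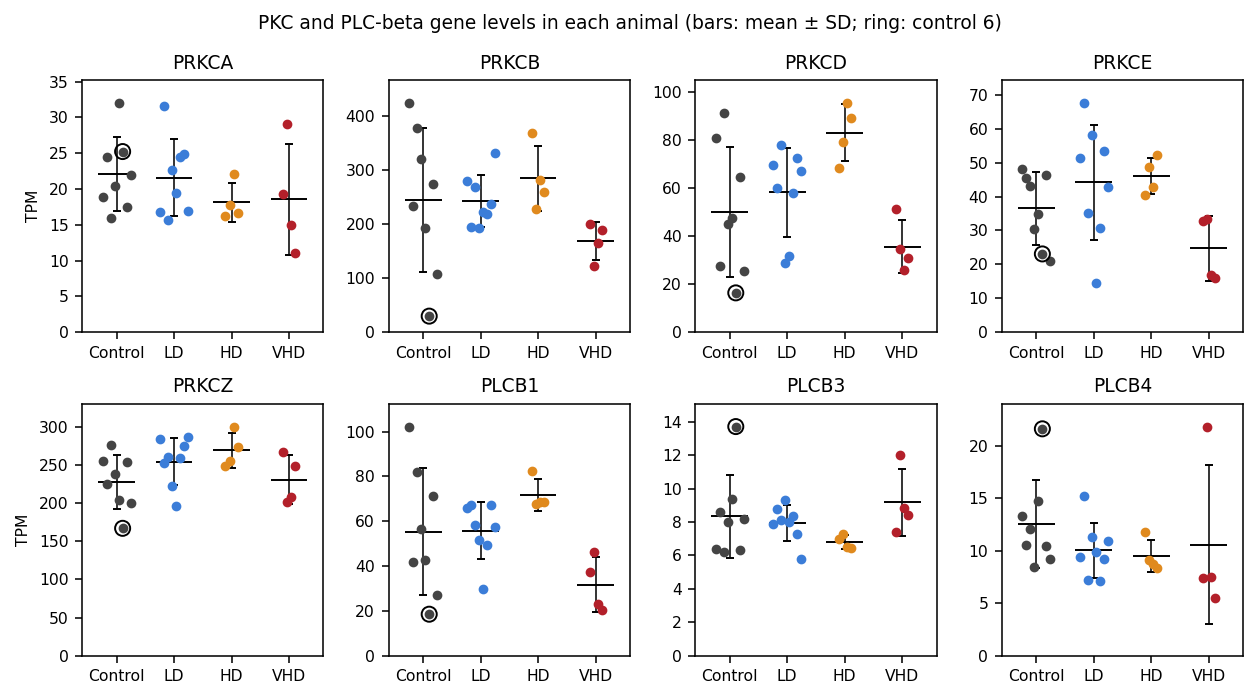
TPM of each of the 8 genes (vertical axes, linear from 0) by drinking group (horizontal axes), 1 point per animal, with 8 controls, 8 LD, 4 HD and 4 VHD animals, bars for mean and SD, and a ring around control 6. The controls spread from 16.4 to 91.4 TPM for PRKCD and from 18.5 to 102 TPM for PLCB1, while the HD animals lie above the VHD animals in the panels of PRKCB, PRKCD, PRKCE and PLCB1.

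The first question was whether heavy drinkers, LD* animals and controls differed. None of the 8 genes passed in any of the 3 comparisons of classes, tested here with limma on log2(TPM + 1). The authors, who tested read counts by another method, reported PLCB1 and PRKCE as lower in HD* animals than in controls. These calls were thus not recovered here, and the reason was not tested. For HD* animals against controls, 0 of 13637 genes had an adjusted p under 0.05 (0%, limma on log2(TPM + 1) with Benjamini-Hochberg adjustment), and 775 genes (5.68%) but 0 of the 8 had an unadjusted p under 0.05. For LD* animals against controls the counts were 0 (0%) and 387 (2.84%), and for HD* against LD* animals 0 (0%) and 147 (1.08%), again with 0 of the 8 at the unadjusted threshold.

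Among the calcium-dependent kinases, PRKCA, a widely expressed isoform, ran from 16 through a median of 21.2 to 32.0 TPM in controls and from 15.7 through 21.1 to 31.6 TPM in LD* animals. In HD* animals it ran from 11.0 through 17.2 to 29.0 TPM, and 6 of the 8 lay within the range of the controls. Its log2 difference between HD* animals and controls was −0.27 (95% interval −0.62 to 0.078, limma adjusted p = 0.706). PRKCB, an isoform abundant in striatal neurons, ran from 29.8 through 255 to 425 TPM in controls, from 192 through 230.5 to 333 TPM in LD* animals and from 122 through 214 to 369 TPM in HD* animals. The controls thus enclosed every drinker. The log2 difference of PRKCB between HD* animals and controls was 0.14 (interval −0.61 to 0.90, adjusted p = 0.884), and it was −0.24 without control 6.

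Of the kinases that need diacylglycerol alone, PRKCD ran from 16.4 through 46.5 to 91.4 TPM in controls, from 28.7 through 63.6 to 78.0 TPM in LD* animals and from 25.8 through 59.95 to 95.5 TPM in HD* animals. The median of the controls was the lowest of the classes, yet 7 of 8 HD* animals lay within the controls' range. The log2 difference of HD* animals from controls was 0.29 (interval −0.39 to 0.98, adjusted p = 0.752). PRKCE, an isoform much studied in rodents for its role in ethanol self-administration, ran from 20.9 through 38.9 to 48.0 TPM in controls, from 14.4 through 47.0 to 67.5 TPM in LD* animals and from 16.1 through 36.8 to 52.3 TPM in HD* animals. Both drinking classes reached below and above the controls, and 4 of 8 HD* animals lay within the controls' range. Their log2 differences from controls were −0.093 for HD* (interval −0.67 to 0.48, adjusted p = 0.902) and 0.21 for LD* animals (interval −0.37 to 0.78).

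PRKCZ, the atypical isoform, had the ranges 167 through 232 to 277 TPM in controls, 196 through 260 to 287 TPM in LD* animals and 201 through 252 to 301 TPM in HD* animals. Of the HD* animals, 7 of 8 lay within the controls' range, and the log2 difference from controls was 0.14 (interval −0.081 to 0.36, adjusted p = 0.706). This interval was the narrowest of the 8 genes.

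Of the phospholipases, PLCB1, the main neuronal isoform, ran from 18.5 through 49.7 to 102 TPM in controls, from 29.6 through 57.7 to 67.4 TPM in LD* animals and from 20.4 through 56.9 to 82.6 TPM in HD* animals. Every drinker fell within the controls' range. The low end of that range was control 6, and the next lowest control had 27.3 TPM. VHD 3 (22.9 TPM) and VHD 4 (20.4 TPM) lay between these controls. The log2 difference of HD* animals from controls was −0.065 (interval −0.71 to 0.58, adjusted p = 0.937), and it was −0.26 without control 6. PLCB3 ran from 6.21 through 8.09 to 13.7 TPM in controls, from 5.78 through 8.07 to 9.31 TPM in LD* animals and from 6.44 through 7.36 to 12.0 TPM in HD* animals, with a log2 difference between HD* animals and controls of −0.040 (interval −0.33 to 0.25, adjusted p = 0.914). PLCB4, an isoform best known from cerebellum and retina, ran from 8.44 through 11.3 to 21.6 TPM in controls, from 7.09 through 9.62 to 15.2 TPM in LD* animals and from 5.49 through 8.56 to 21.9 TPM in HD* animals. Of its HD* values 3 of 8 lay within the controls' range, and the log2 difference was −0.34 (interval −0.77 to 0.083, adjusted p = 0.706). Across the 8 genes, log2 differences of LD* animals from controls ran from −0.28 for PLCB4 to 0.34 for PRKCD, and those of HD* from LD* animals from −0.30 for PRKCE to −0.0051 for PLCB3. The 3 comparisons share their animals and are not independent of each other.

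A secondary question was whether heavy and very heavy drinkers differed within the HD* class. In a fit of these 8 animals alone, 4 of the 8 genes were lower in VHD animals at an adjusted p under 0.05, namely PRKCB, PRKCD, PRKCE and PLCB1, and 0 were higher. Over all tested genes 1997 (14.6%) passed, 1556 lower (11.4%) and 441 higher (3.23%) in VHD animals. The median log2 difference was −0.49 over the 8 genes and −0.17 over all tested genes, a shift of the whole table that rescaling with trimmed means of log ratios (TMM) brought to −0.019. With that rescaling the calls over all genes were 1583 lower and 1065 higher, 4 of the 8 among them but not PRKCB (log2 difference −0.57, limma adjusted p = 0.145). When the spread was instead estimated from all 24 animals in 4 groups, 0 genes and 0 of the 8 passed.

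PRKCD showed the largest difference of the kinases. The HD animals had 68.6, 79.4, 95.5 and 89.3 TPM and the VHD animals 51.3, 34.5, 25.8 and 30.8 TPM. The lowest HD animal lay above the highest VHD animal, and the means differed 2.34-fold (log2 difference −1.24, 95% interval −1.68 to −0.80, SE 0.20, adjusted p = 0.00531). With the spread of all 24 animals the adjusted p was 0.0613. Among the controls, 5 of 8 fell below the highest VHD animal and 2 above the lowest HD animal, so the animals without ethanol covered both levels.

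PLCB1 behaved much like PRKCD. It measured 82.6, 67.7, 68.4 and 68.7 TPM in HD animals and 37.2, 46.1, 22.9 and 20.4 TPM in VHD animals. The groups did not overlap, and the HD mean was 2.27 times the VHD mean (log2 difference −1.23, interval −1.73 to −0.72, SE 0.23, adjusted p = 0.00859, and 0.0567 with the spread of all 24 animals). Of the LD* animals, 1 of 8 lay below the highest VHD animal and 0 above the lowest HD animal, whereas 4 and 3 of the 8 controls did.

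PRKCE had 40.4, 48.7, 42.7 and 52.3 TPM in HD animals and 32.7, 33.2, 16.8 and 16.1 TPM in VHD animals. The pair of VHD animals of cohort 5 lay above the pair of cohort 7a, and no VHD value reached the HD values. The log2 difference was −0.94 (interval −1.47 to −0.42, SE 0.24, adjusted p = 0.0257, and 0.0779 with the spread of all 24 animals). PRKCB had 369, 228, 283 and 261 TPM in HD animals and 200, 122, 165 and 189 TPM in VHD animals, again without overlap (log2 difference −0.75, interval −1.16 to −0.35, SE 0.19, adjusted p = 0.0221, and 0.291 with the spread of all 24 animals).

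Counts of non-overlap have a high background in these 8 animals, since 17.9% of all tested genes lay lower in every VHD than in every HD animal and 5.39% higher. PLCB3 was of the latter kind, with 6.97, 7.31, 6.52 and 6.44 TPM in HD animals and 7.41, 12.0, 8.86 and 8.41 TPM in VHD animals. Its groups were separated by a small gap, and its log2 difference of 0.36 (interval −0.064 to 0.79, adjusted p = 0.218) did not pass, although it did after TMM rescaling (0.52, adjusted p = 0.0309). The other three genes overlapped. PRKCZ had 249, 256, 301 and 273 TPM in HD animals and 267, 201, 208 and 249 TPM in VHD animals (log2 difference −0.23, interval −0.52 to 0.064, adjusted p = 0.257).

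PRKCA, with 16.2, 17.7, 22.1 and 16.6 TPM in HD animals and 19.3, 29.0, 14.9 and 11.0 TPM in VHD animals, had a log2 difference of −0.043 (interval −0.60 to 0.52, adjusted p = 0.925). PLCB4, with 11.8, 9.15, 8.76 and 8.37 TPM in HD animals and 7.43, 21.9, 7.52 and 5.49 TPM in VHD animals, had −0.038 (interval −0.77 to 0.69, adjusted p = 0.949). For both the VHD group was the wider, with VHD 2 highest, and the sign turned with TMM rescaling (0.12 each).

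**Figure D2:**
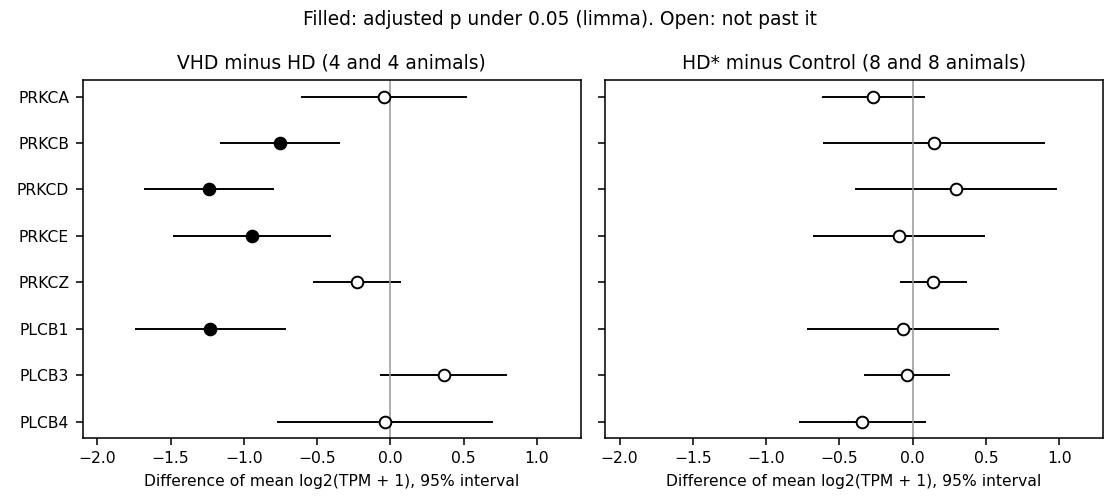
Log2 difference with its 95% interval (horizontal axis, limma on log2(TPM + 1)) for each of the 8 genes, for VHD minus HD (left) and HD* minus controls (right), filled where the adjusted p was under 0.05. All intervals of HD* against controls include 0, while the intervals of VHD against HD lie below 0 for PRKCB, PRKCD, PRKCE and PLCB1.

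Single animals decided part of these calls. Leaving out 1 animal at a time, PRKCD and PLCB1 passed every time (adjusted p at most 0.0263 and 0.0407). PRKCB did not pass without HD 1 (adjusted p = 0.0605), HD 3 (0.0654), HD 4 (0.0521) or VHD 3 (0.0741), and PRKCE did not pass without HD 2 (0.0775), HD 3 (0.0654), HD 4 (0.0752) or VHD 3 (0.0961). The log2 difference kept its sign in each case, between −0.85 and −0.60 for PRKCB and between −1.11 and −0.77 for PRKCE. The number of genes passing over the whole table was 1094 without HD 1, 681 without HD 2, 607 without HD 3, 723 without HD 4, 2073 without VHD 1, 4651 without VHD 2, 476 without VHD 3 and 1813 without VHD 4.

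Within cohorts, the log2 difference of VHD from HD animals (2 against 2) had the same sign in both for the called genes. It was −0.80 in cohort 5 and −1.68 in cohort 7a for PRKCD, −0.84 and −1.62 for PLCB1, −0.42 and −1.47 for PRKCE, and −0.89 and −0.62 for PRKCB. PRKCZ (−0.12 and −0.33) and PLCB3 (0.36 and 0.36) also kept their sign. PRKCA (0.46 and −0.54) and PLCB4 (0.29 and −0.36) did not. No test was run within a cohort, where each group held 2 animals.

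Set against the controls in the model of 4 groups over 24 animals, neither heavy nor very heavy drinkers differed in any of the 8 genes at an adjusted p under 0.05. For HD animals against controls 0 genes passed (0%) and 1059 (7.77%) had an unadjusted p under 0.05. Of the 8, PRKCD was among the latter, higher by a log2 difference of 0.91 (interval 0.19 to 1.64, adjusted p = 0.582), and PLCB1 differed by 0.55 and PRKCB by 0.52. For VHD animals against controls 0 genes passed (0%) and 3559 (26.1%) had an unadjusted p under 0.05. PLCB1 was among these, with a log2 difference of −0.68 (interval −1.35 to −0.0078, adjusted p = 0.187), and PRKCE differed by −0.57 (adjusted p = 0.231), PRKCD by −0.32 and PRKCB by −0.23. Both comparisons use the same controls. Without VHD 2, 3836 genes passed for VHD animals against controls, PLCB4 among them (log2 difference −0.75, adjusted p = 0.0216), and 1231 passed without control 8, with 0 of the 8 genes.

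Levels of cell type markers moved with the difference between HD and VHD animals. The 10 striatal projection neuron markers summed to 8675 to 10250 TPM in HD and 3209 to 5944 TPM in VHD animals, and 9 of 10 were called lower, all but TAC1, with a median log2 difference of −1.15. The 5 general neuron markers summed to 2570 to 3142 TPM and 1211 to 2661 TPM (2 of 5 called lower, SNAP25 and SYT1). The 6 astrocyte markers summed to 1769 to 3253 TPM and 3917 to 6570 TPM (GFAP called higher). The 6 microglia markers summed to 273 to 359 TPM and 360 to 630 TPM (AIF1, C1QA and C1QB called higher). The 7 oligodendrocyte markers summed to 2386 to 4058 TPM and 2320 to 4917 TPM. Of these only MBP was called, as higher (limma adjusted p = 0.0465). By sign 3 of the 7 were higher and 4 lower, with a median log2 difference of −0.13. The 3 endothelial markers summed to 77.0 to 96.5 TPM and 49.2 to 101 TPM (0 of 3 called). The 5 cortical excitatory neuron markers summed to 1.42 to 243 TPM in HD and 2.32 to 22.4 TPM in VHD animals, with 0 of 5 called and a median log2 difference of −1.36. The 80 ribosomal protein genes summed to 72131 to 83309 TPM in HD and 100198 to 168039 TPM in VHD animals. Beside the striatal median stand the values of PRKCD (−1.24), PLCB1 (−1.23), PRKCE (−0.94) and PRKCB (−0.75), and the part of these marker levels in the differences of the 8 genes was not tested. All 4 HD animals belonged to the set of higher and all 4 VHD animals to the set of lower striatal markers, so marker set and drinking group cannot be told apart in this comparison.

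The levels of the 8 genes were also set against the summed striatal markers over all animals, as a description of log2 values that share 1 library per animal and 1 total per library. Because the animals fell into sets of 12 and 12, Pearson's r was taken within each set. For PRKCB it was 0.60 in the higher and 0.95 in the lower set (0.75 in the latter without control 6), and for PRKCD 0.54 and 0.66 (0.37). PRKCZ had 0.47 and 0.78 (0.65), and PLCB3 had −0.38 and −0.80 (−0.47), so PRKCB, PRKCD and PRKCZ were positive and PLCB3 negative in both sets. PRKCA was also negative in both (−0.39 and −0.31, the latter −0.43 without control 6). PLCB1 (0.44 and 0.38) turned to −0.17 in the lower set without control 6, PLCB4 (0.47 and −0.67) differed in sign between the sets, and PRKCE was near 0 in both (0.03 and 0.07). Over the 24 animals, both sets together, PRKCE was close to the general neuron markers (r = 0.88, Spearman's rho 0.81) and opposite to the ribosomal protein genes (r = −0.85). PRKCE was not alone in this, since PLCB1 had r = 0.76 and −0.80. PRKCD had 0.46 and −0.68. For the general neuron and ribosomal protein lists r was not taken within the sets. Over the same 24 animals, r with the summed striatal markers was 0.41 for PRKCE, 0.73 for PLCB1 and 0.85 for PRKCD.

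**Figure D3:**
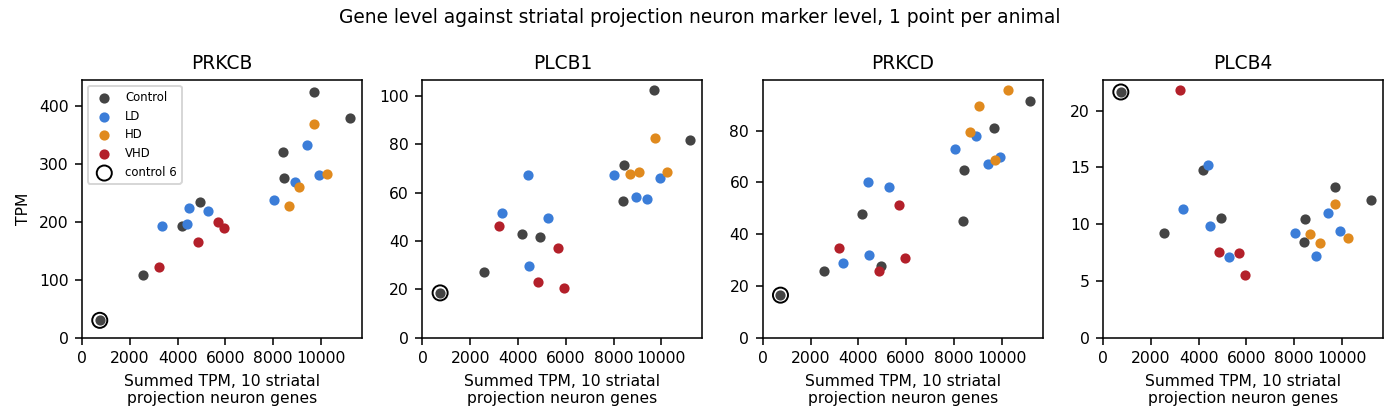
Level of 4 of the genes (vertical axes) against the summed TPM of 10 striatal projection neuron markers (horizontal axes), 1 point per animal, coloured by drinking group. The ringed animal at the far left is control 6, whose markers sum to 739 TPM, and an empty stretch between 5944 and 8040 TPM parts the animals into 12 and 12.

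Among themselves, PRKCD and PRKCZ moved together in both sets (r = 0.61 in the higher and 0.76 in the lower set), as did PRKCD and PLCB1 (0.42 and 0.73), PRKCB and PLCB1 (0.58 and 0.53, the latter 0.23 without control 6) and PRKCE and PLCB1 (0.38 and 0.85). PLCB1 was thus the gene with positive r to PRKCB, PRKCD and PRKCE throughout. PRKCB and PLCB3 were negative in both (−0.40 and −0.80, the latter −0.44 without control 6). Other pairs did not hold across sets, such as PRKCB with PRKCZ (−0.17 and 0.71, the latter 0.46 without control 6), PRKCA with PLCB4 (−0.16 and 0.76) and PLCB3 with PLCB4 (−0.63 and 0.82). Between isoforms of the same class, the conventional PRKCA and PRKCB had r = −0.27 and −0.14, and the calcium-independent PRKCD and PRKCE had 0.53 and 0.43. Over 12 animals each, such values are wide estimates.

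**Figure D4:**
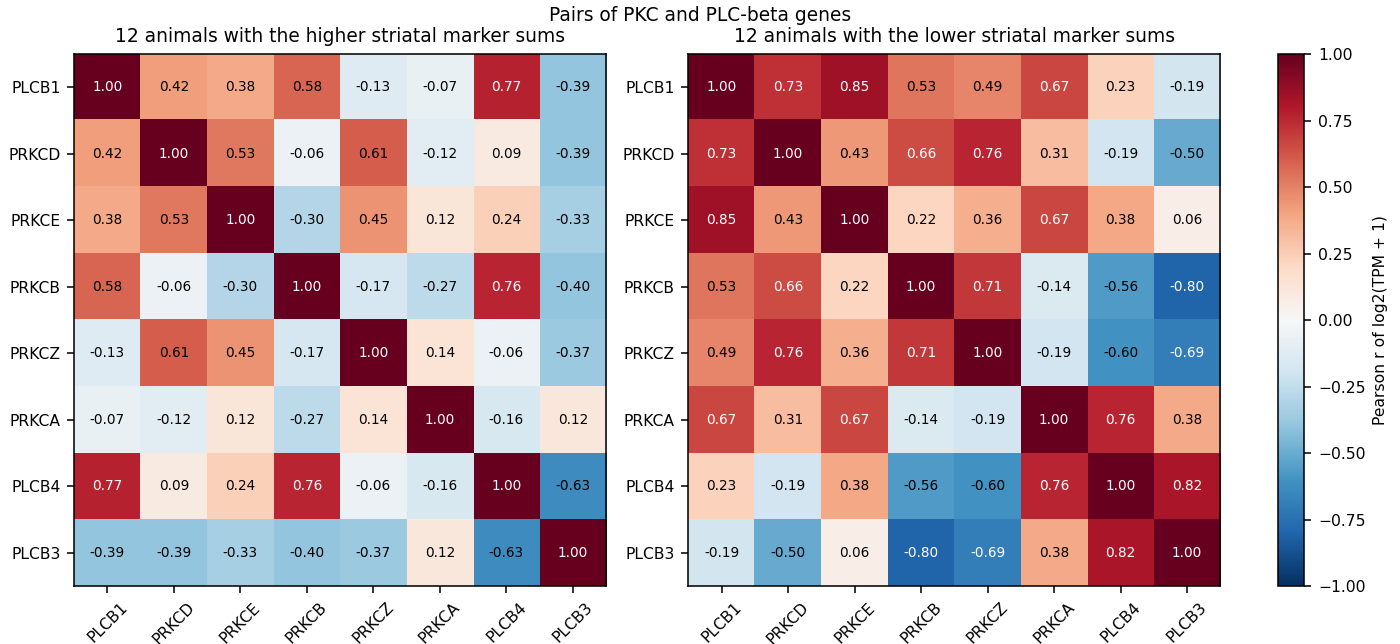
Pearson's r of log2(TPM + 1) between each pair of the 8 genes, as coloured grids for the 12 animals with the higher (left) and the 12 with the lower (right) summed striatal markers. PLCB1 is positive to PRKCB, PRKCD and PRKCE in both grids, while PLCB3 and PLCB4 go from −0.63 on the left to 0.82 on the right.

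The genes most like each of the 8, by r over all 24 animals (both sets together) among the 9196 other genes (9197 for PLCB3) that averaged 10 TPM or more, were of different kinds. PRKCB was most like GPR52, EGR3 and ANO3 (r = 0.98, 0.97 and 0.97), PRKCD like ZNF503, DCLK3 and the muscarinic receptor gene CHRM4 (0.97, 0.96 and 0.96), and PLCB1 like RGS7BP, KLF9 and ST8SIA3 (0.97 each). PRKCE was most like NAPB, SYT1 and OPCML (0.97, 0.96 and 0.96), of which NAPB and SYT1 encode parts of the synaptic vesicle fusion machinery. PRKCZ was most like BAI1, PTMS and CDK5R2 (0.95, 0.94 and 0.94). PRKCA went with ZNF521, GOSR2 and FAM155A (0.93, 0.90 and 0.89), PLCB3 with ILK, C2orf72 and HDAC1 (0.92, 0.92 and 0.90), and PLCB4 with SEC62, RGMB and RCBTB1 (0.92, 0.91 and 0.89). Some of these values leaned on extreme animals. Without the 2 animals farthest from the median level of the gene, PLCB4 with RCBTB1 had r = 0.76. PLCB3 then had 0.84, 0.82 and 0.83 with its genes, and PRKCB with EGR3 had 0.90.

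The wider pathway was read from a list of 78 genes, 77 of them tested (GNA14 had a mean under 1 TPM). In VHD against HD animals 22 were lower and 2 higher at an adjusted p under 0.05, beside 11.4% and 3.23% of all tested genes, and their median log2 difference was −0.45. Upstream of the phospholipase, all 9 Gq-coupled receptors had a negative log2 difference and 3 were called lower. These were CHRM1 (M1 muscarinic receptor, log2 difference −1.12, limma adjusted p = 0.00418), GRM5 (metabotropic glutamate receptor 5, −1.28, 0.00641) and ADRA1D (alpha-1D adrenergic receptor, −0.80, 0.0234). CHRM1 had 211, 216, 243 and 229 TPM in HD animals and 143, 85.2, 100 and 91.2 TPM in VHD animals. Every HD animal thus lay above every VHD animal, as for 17.9% of all tested genes. Of 5 tested genes for Gq-class G proteins and their regulators, RGS4 (−1.70, limma adjusted p = 0.00435) and RGS8 (−1.09, 0.0069), which shorten Gq signals, were called lower. GNAQ and GNA11 were not called.

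Downstream, the diacylglycerol list held the most calls, with 8 of 14 genes called lower. Its leading genes were DGKB (log2 difference −1.78, adjusted p = 0.00363) and DGKI (−1.28, 0.00418), kinases that remove diacylglycerol by phosphorylation, and UNC13A (−0.83, 0.00546), a diacylglycerol-binding priming factor of synaptic vesicles. DGKB had 231, 127, 118 and 126 TPM in HD animals and 50.5, 34.4, 33.5 and 50.1 TPM in VHD animals. Every VHD animal lay below every HD animal, as for 17.9% of all tested genes. Controls ran from 10.9 to 277 TPM and LD* animals from 47.6 to 138 TPM, so both covered the gap. DGKA, DAGLA, DAGLB, RASGRP1 and RASGRP2 were the others, so the calls took in genes that consume diacylglycerol and genes that bind it. For IP3, 2 of 7 were called lower, the receptor gene ITPR1 (−0.95, limma adjusted p = 0.0179) and the phosphatase gene INPP5A (−0.95, 0.00727). In phosphoinositide supply 2 of 8 were called lower (PI4KA and CDIPT), while all 8 had a negative log2 difference. The share of all tested genes called lower was 11.4%.

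Within the kinase and phospholipase families beyond the 8 genes, PRKCH, a diacylglycerol-dependent kinase, was among the kinases called lower (log2 difference −1.08, adjusted p = 0.0278). It had 73.7, 80.4, 131 and 72.4 TPM in HD animals and 70.5, 27.8, 46.3 and 29.5 TPM in VHD animals. The groups did not overlap, but were parted only by the gap from 70.5 to 72.4 TPM. Of all tested genes, 17.9% lay lower in every VHD than in every HD animal. PRKCI, PRKCQ, PRKD1, PRKD2, PRKD3 and PKN2 did not pass. Of 11 further phospholipase genes, PLCL2, a relative without catalytic activity, was called lower (−0.87, 0.00906) and PLCB2, the isoform of blood cells, was called higher. PLCB2 had 8.97, 8.54, 10.7 and 9.80 TPM in HD animals and 15.1, 21.4, 15.5 and 16.4 TPM in VHD animals (log2 difference 0.78, SE 0.18, adjusted p = 0.0188). Of 14 substrates and anchors, ADD1 (−0.43, 0.0388) and NRGN (−0.95, 0.0483) were called lower. GNB2L1, the anchor of activated kinase C and also a ribosomal protein, was called higher (0.67, 0.0174). Among all tested genes 11.4% were called lower and 3.23% higher. Whether the phospholipase list or the list of substrates and anchors differed from these shares was not tested. The genes named for counts of 5 or fewer were chosen after their values were seen, and with the spread of all 24 animals 0 of the 77 passed.

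In the other comparisons 0 of the 77 pathway genes passed (limma), and those with the smallest p are given by rule. For HD* animals against controls these were PARD6A, a partner of atypical kinase C (log2 difference 0.26, adjusted p = 0.706), and the IP3 receptor gene ITPR2 (−0.46, 0.706), with 5 of 77 at an unadjusted p under 0.05. For LD* animals against controls they were PRKD2 (−0.27, 1.00) and ITPR2 (−0.36, 1.00), with 3 at the unadjusted threshold, and for HD* against LD* animals PARD6A (0.22, 0.937) and DGKG (−0.54, 0.937), with 1. ITPR2 ran from 6.71 through 8.65 to 11.8 TPM in controls and from 3.43 through 6.13 to 11.8 TPM in HD* animals. HD animals against controls gave ADD3 (−0.54, 0.582) and PLCB2 (−0.53, 0.582), with 11, and VHD animals against controls CDS1 (−0.71, 0.155) and ADD1 (−0.33, 0.155), with 23. Without VHD 2 both of the latter passed (adjusted p = 0.0158 and 0.0215), and ADD1 also without control 8 (0.0466).

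Ethanol intake was then set against the genes within the drinkers. In a model of the 16 drinkers with class as a term, 0 genes had a slope at an adjusted p under 0.05 (0%), 1107 (8.12%) had one at an unadjusted p under 0.05, and 2 of the 8 were among these. PLCB1 fell by 0.67 on the log2 scale per g/kg of daily intake (SE 0.29, limma adjusted p = 0.498) and PRKCE by 0.74 (SE 0.32, adjusted p = 0.498). PRKCD followed with −0.55 (SE 0.33, adjusted p = 0.503), and the remaining slopes ran from −0.33 for PLCB4 to 0.0045 for PLCB3. The HD and VHD animals enter this model, so the slopes are not separate evidence from their comparison. One animal moved several slopes. Without LD 2, the animal with the lowest intake, the slope was −1.11 for PLCB1, −1.04 for PRKCD and −0.69 for PRKCB, in place of −0.19 for the last. It was also 0.24 for PRKCA in place of −0.15, and −0.095 for PLCB4 in place of −0.33. Of the pathway list, ADRA1D (−0.75, adjusted p = 0.498) and CDS2 (−0.64, 0.498) had the smallest p, and 9 of 77 passed the unadjusted threshold.

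**Figure D5:**
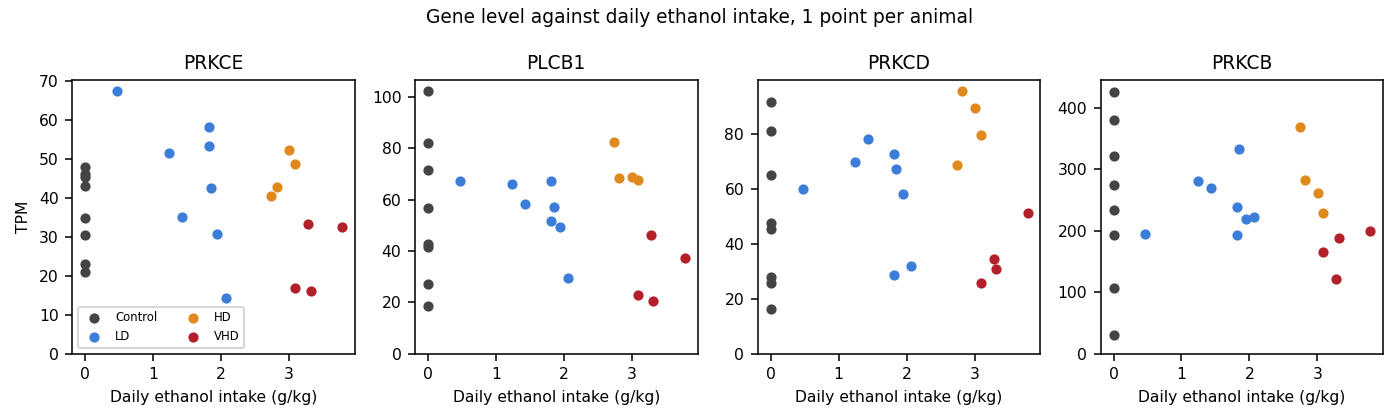
TPM of PRKCE, PLCB1, PRKCD and PRKCB (vertical axes, linear from 0) against mean daily ethanol intake in g/kg (horizontal axes), 1 point per animal, with controls at 0. Controls run from 20.9 to 48.0 TPM for PRKCE and from 18.5 to 102 TPM for PLCB1, and the intakes of HD and VHD animals meet at 3.09 g/kg.

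Cohort was the last grouping. With class in the model, 0 genes differed among the 4 cohorts at an adjusted p under 0.05 (0%, limma F test), 1140 (8.36%) had an unadjusted p under 0.05, and 0 of the 8 did. The smallest adjusted p of the 8 was 0.54, for PRKCE, whose mean was 59.5 TPM in cohort 4 (n = 2), 41.6 ± 6.56 in cohort 5 (SD, n = 7), 35.7 ± 14.9 in cohort 7a (n = 9) and 32.7 ± 14.8 in cohort 7b (n = 6). PLCB1 had the same order, from 66.8 TPM in cohort 4 to 42.9 ± 15.9 TPM in cohort 7b. In the pathway list PPP1R14A and AKAP12 had the smallest p (adjusted p = 0.54 each), and 8 of 77 passed the unadjusted threshold.

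Heavy drinkers and controls occurred together only in cohorts 5 and 7a, and the HD* effect was compared between these cohorts by an interaction term over their 13 animals. Here 0 genes passed (0%), 294 (2.16%) had an unadjusted p under 0.05, and 0 of the 8 did. PRKCB had the largest interaction of the 8, a log2 difference of 1.00 between cohorts (SE 0.58, interval −0.25 to 2.25, limma adjusted p = 1.00), with HD* animals at −0.65 from controls in cohort 5 and 0.35 in cohort 7a. Its interaction ran from 0.33 without control 8 to 1.67 without control 7, the only controls of cohort 7a. For PRKCD the cohort values were −0.084 and 0.32, for PLCB1 −0.33 and −0.19, for PRKCE −0.24 and −0.15, and for PLCB4 −0.042 and −0.36. MARCKSL1 (−0.75) and PLCG2 (−0.59) had the smallest p of the pathway list, with 0 of 77 at the unadjusted threshold.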

How the data were processed

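RNA-Seq of the NAcc core was available for 24 animals, 1 sample each. The authors made polyA-selected libraries, aligned reads to the MacaM assembly with STAR 2.5.2b, kept unique alignments, counted genes with HTSeq 0.6.1p1 and used DESeq2 for their tests. The table deposited by the authors holds TPM. How lengths entered it is not given in the sources used here, and the sources differ on strand and read pairing. Depth is unknown, so counting error is not given. All 8 symbols occur in RefSeq (T2T-MMU8v2.0), another build, so no coordinates are printed.

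Values were analysed as log2(TPM + 1), which understates changes of low genes, in the 13637 genes that averaged 1 TPM or more, with limma 3.58.1 (trended empirical Bayes) in R 4.3.3 and Benjamini-Hochberg adjustment over all of them. Models held 3 classes, 4 groups, the 8 HD* animals, intake and class, cohort and class, or class by cohort. The spread is between animals. Descriptions used Python 3.11.15, pandas 2.3.3 and numpy 2.4.6, and plots matplotlib 3.10.9. The fits were tested on simulated data. Alternatives were pseudocounts of 0.1 and 8, no filter and one of 10 TPM, TMM rescaling (trimming 30% of M and 5% of A), array weights, other samples or covariates, a threshold of 0.001, and each animal left out. The split of animals at the widest gap of summed striatal markers was made after seeing the data.

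The genes, pathway list and marker lists were chosen with earlier results of these data known. By rule, pathway genes are named by the smallest p, 6 for VHD against HD animals and 2 for each other comparison. For VHD against HD animals further genes of the list are named outside this rule, chosen after their values were seen. A few genes of the pathway list are not reported here.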

Additional observations from a re-analysis of the deposited data

Results flagged for a closer look

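In groups of 4 to 8 animals, 28 genes (the 8 genes, PLCB2 and the pathway genes named by rule) were searched for a single animal far from the rest of its group by Dixon's criterion. Of 140 groups 11 held one. The nominal rate of the criterion, about 1 in 20, is for independent groups of normally distributed values. Here the HD* groups contain the HD and VHD groups, and TPM was not transformed, so the count cannot be set against that rate. PLCB1 was 82.6 TPM in HD 1 against 67.7 to 68.7 TPM in the other HD animals. PLCB3 was 13.7 TPM in control 6 against 6.21 to 9.36 TPM in the other controls, and 12.0 TPM in VHD 2 against 6.44 to 8.86 TPM in the other HD* animals. PLCB4 was 21.9 TPM in VHD 2, against 5.49 to 11.8 TPM in the other HD* animals and 5.49 to 7.52 TPM in the other VHD animals.

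Among pathway genes, ITPR2 was 11.8 TPM in VHD 2 (others of HD* 3.43 to 6.62), PRKD2 was 5.79 TPM in VHD 3 (other VHD 4.94 to 5.04), and DGKB was 230.6 TPM in HD 1 (other HD 118 to 127, others of HD* from 33.5). RGS4 was 347.5 TPM in LD 4 (other LD* 29.0 to 141) and PPP1R14A was 733.8 TPM in control 6 (other controls 136 to 337). VHD 2 gave 4 of the 11, HD 1 gave 3, control 6 gave 2, and LD 4 and VHD 3 gave 1 each.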

How the results depend on the processing

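No paired analysis was possible because the labels give the animals no replicate numbers that groups share. Of 495 values of the 8 genes under the alternatives other than leaving out animals, 457 kept their direction and side of the threshold, 28 changed sign, 7 lost and 3 gained a call. Sign changes were all of values that did not pass, in the first place of HD* against controls under TMM rescaling (PRKCE 0.037, PLCB1 0.066, PLCB3 0.081), array weights (PRKCB −0.15, PRKCE 0.10, PLCB1 0.0037), cohort as a covariate (PRKCB −0.11, PLCB3 0.094) and cohorts 5 and 7a alone (PRKCB −0.25, PLCB3 0.13). For LD* against controls they were PRKCA 0.011 and PLCB3 0.0082 with TMM, and PRKCB −0.12, PLCB1 −0.045 and PLCB3 0.047 with array weights. For HD* against LD* they were PRKCD 0.040, PRKCZ 0.061, PLCB3 0.073 and PLCB4 0.0083 with TMM, PRKCD 0.16 and PLCB1 0.049 with array weights, and PLCB3 0.19 with cohort. For VHD against HD they were PRKCA 0.12 and PLCB4 0.12 with TMM and PLCB4 0.013 with a pseudocount of 8. PRKCZ was −0.074 for VHD against controls with cohort, its intake slope 0.017 with TMM, and that of PLCB3 −0.0016 without class. The causes were not tested.

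For VHD against HD, the count of 1997 genes became 0 at a threshold of 0.001, 7613 with array weights and 0 in the model of 4 groups, and the count of 4 of the 8 genes became 0, 6 and 0, and 2 without a filter (PRKCB and PRKCE lost). PRKCZ gained a call with array weights (adjusted p = 0.0125), and PLCB3 with array weights and TMM.

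Leaving out 1 animal each time gave 476 to 4651 genes and 2 to 4 of the 8 for VHD against HD, 0 to 3836 and 0 to 1 for VHD against controls, 0 to 1 gene for intake (1 without LD 2) and 0 to 14 for the HD* effect by cohort (14 without control 7, 1 without control 2). Log2 differences that changed sign ran, for HD* against controls, from −0.24 to 0.30 (PRKCB), −0.19 to 0.047 (PRKCE), −0.26 to 0.099 (PLCB1) and −0.12 to 0.059 (PLCB3). For LD* against controls they ran from −0.12 to 0.043 (PRKCA), −0.086 to 0.46 (PRKCB), −0.036 to 0.31 (PLCB1) and −0.083 to 0.064 (PLCB3), and for HD* against LD* from −0.18 to 0.10 (PRKCD), −0.078 to 0.018 (PRKCZ), −0.084 to 0.031 (PLCB3) and −0.23 to 0.028 (PLCB4). They ran from −0.28 to 0.16 (PRKCA) and −0.43 to 0.18 (PLCB4) for VHD against HD, and from −0.046 to 0.090 (PRKCZ) for VHD against controls. Intake slopes ran from −0.22 to 0.24 (PRKCA) and −0.029 to 0.15 (PLCB3), and interactions from −0.25 to 1.05 (PRKCD), −0.46 to 0.64 (PRKCE), −0.53 to 0.82 (PLCB1) and −0.32 to 0.011 (PLCB3). Depth could not be read from TPM, so what it limits is unknown.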

Other observations

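Beyond the 8 genes, PRKCH averaged 70.3 ± 32.4 TPM and had its lowest value, 6.36 TPM, in control 6. The next lowest animal was VHD 2 with 27.8 TPM. PLCB2 ran from 9.13 through 14.6 to 20.1 TPM in controls and from 8.16 through 12.6 to 19.3 TPM in LD* animals, so that controls and LD* animals covered the gap between its HD and VHD values.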
